A study of Mus musculus with 12 samples.

Results

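The comparison of l-methionine with saline covered 6 of the 12 small RNA libraries of the series, chosen by treatment label: 3 libraries of mice given methionine and saline (MS, replicates 3, 4 and 23) and 3 of mice given saline alone (SS, replicates 12, 13 and 14). All were adult male C57BL/6 mice that went through the conditioned place preference procedure without cocaine. In the MS group l-methionine was injected under the skin, 1 g/kg (6.6 mmol/kg) 2 times a day for 10 days, and in the SS group saline was injected in its place. This dose is the one in the paper's methods, and a figure legend of the paper gives a lower one. The medial prefrontal cortex (PFC) was taken 2 h after the last test, RNA of 18 to 30 nt was sequenced, and each library was made from RNA pooled from 2 animals, so the spread among libraries is the spread among pools. In bulk tissue, fewer cells of a type and less RNA per cell cannot be told apart.

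In units of 1000000 counts the 6 libraries held between 8.23 and 11.1, and 3 counts corresponded to 0.271 to 0.365 counts per 1000000 (CPM). Neither group was deeper (10.5 ± 0.482 in MS and 9.78 ± 1.44 in SS, in the same unit, SD, n = 3, two-sided exact permutation p = 0.7; 0.1 is the smallest p that 3 against 3 libraries can give). No pair of libraries looked like one library deposited in duplicate: over 478 miRNAs the smallest chi-square per degree of freedom among 15 pairs was 286. SS 12 stood apart from the other 5: 22 of 125 precursor families and 16 of 780 miRNAs were over 3 times their highest level elsewhere there, against 0 to 3 and 1 to 5 in the other libraries, and its deviations in precursor families correlated with those of the cocaine libraries CS 8 and CS 9 (r = 0.673 and 0.70) rather than SS 13 and SS 14 (r = -0.281 and -0.348). Outside the comparison, the MC library 16 had the least typical miRNA profile (median r = 0.94 with the other 11, 0.974 to 0.977 for the rest), and it enters the spread that all 4 groups share in the fit. Calls that appear without MC 16 or without SS 12 are given beside the miRNAs described below.

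miRNAs are RNAs of about the length sequenced here that are cut from hairpin precursors and guide Argonaute proteins to messenger RNAs, mainly through the seed, the stretch near the 5′ end that pairs with the target. miRNAs with the same seed form a family with overlapping targets. Methionine is the source of S-adenosylmethionine, the methyl donor of DNA and histone methylation, and the miR-29 family is known to repress DNA methyltransferases. The mature sequences of the families and single miRNAs that led the comparison are shown first, with the seed (bases 2 to 8) in capitals. They come from RefSeq on GRCm38.p6, in which 1160 of the 1374 mature miRNAs in the files had a sequence.
The miR-29 members share 1 seed and differ in the remaining bases:
miR-29a-3p: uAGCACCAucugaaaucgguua
miR-29b-3p: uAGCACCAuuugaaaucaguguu
miR-29c-3p: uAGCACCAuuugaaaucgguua
The members of the miR-30 family with a sequence in the table also share a seed, and miR-30b-5p and miR-30d-5p, without an entry, were placed with them by number and arm:
miR-30a-5p: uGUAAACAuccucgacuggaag
miR-30c-5p: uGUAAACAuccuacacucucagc
miR-30e-5p: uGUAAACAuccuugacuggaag
The miR-7 pair was among the miRNAs of smallest p on the lower side:
miR-7a-5p: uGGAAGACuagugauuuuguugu
miR-7b-5p: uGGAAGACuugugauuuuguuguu
Single miRNAs with the smallest p-values on either side, or called under other settings, are shown with them:
miR-671-5p: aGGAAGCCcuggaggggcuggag
miR-153-3p: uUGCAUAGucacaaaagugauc
miR-106b-5p: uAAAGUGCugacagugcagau
miR-140-3p: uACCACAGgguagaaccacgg
miR-212-5p: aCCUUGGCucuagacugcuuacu
miR-484: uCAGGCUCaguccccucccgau
miR-99b-5p: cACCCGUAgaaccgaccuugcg

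No miRNA passed the test between MS and SS once the spread among libraries was taken into account. Of 1422 mature and predicted miRNAs listed, 780 had enough counts to be tested, and 0 (0%) passed the quasi-likelihood test of edgeR at a Benjamini-Hochberg adjusted p of 0.05, with 75 (9.62%) at an unadjusted p under 0.05, of which 44 were higher and 31 lower in MS. DESeq2 called 13 (1.67%), 8 higher and 5 lower. edgeR fitted to the 6 libraries alone called 3, miR-153-3p, miR-29a-3p and miR-29c-3p, all higher in MS, and the fit of all groups without MC 16 called 7. Levels are given below as normalised CPM, the count scaled to the library total and to a TMM factor of the miRNAs, in the order MS 3, MS 4, MS 23 and SS 12, SS 13, SS 14. On this scale the 3 MS libraries lay above the 3 SS libraries for 100 miRNAs (12.8%) and below them for 83 (10.6%). Scaling to the library total alone gave 146 and 32, as the median log2 difference over all miRNAs shifted from -0.03 to 0.21.

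The miR-29 family held 2 of the 3 miRNAs called on the 6 libraries alone. miR-29a-3p, its most abundant member, encoded at chr6:31062673-31062694 on the minus strand outside any other annotated gene, stood at 4584, 6717 and 5402 normalised CPM in MS and at 2381, 1975 and 2322 in SS. Every MS library was above every SS library, and the ratio of the means was 2.50 (log2 difference 1.32, SE 0.30, edgeR adjusted p = 0.315). miR-29c-3p, from an exon of the noncoding gene A330023F24Rik at chr1:195037600-195037621, stood at 1108, 1603 and 1328 in MS against 568, 511 and 503 in SS (log2 difference 1.35, SE 0.36, edgeR adjusted p = 0.315). Both were called by DESeq2 (adjusted p = 0.0099 and 0.0326), by edgeR on the 6 libraries (adjusted p = 0.0353 for each) and by edgeR without MC 16 (adjusted p = 0.00859 for each). Over the 16 alternatives the adjusted p of either ran from 0.00859 to 0.661, and the log2 difference from 1.17 to 1.58 for miR-29a-3p and from 1.21 to 1.61 for miR-29c-3p. In the fit to the 6 libraries without SS 12 the values were 1.41 and 1.44 (edgeR adjusted p = 0.0417 for each).

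miR-29b-3p, which differs from miR-29a-3p outside the seed and is encoded at both miR-29 loci, showed a smaller gap, with 272, 283 and 336 in MS and 223, 198 and 270 in SS (log2 difference 0.37, SE 0.45). The passenger arms of the same hairpins differed less or the other way: miR-29a-5p differed by 0.35 (SE 0.35), miR-29c-5p by -0.09 (SE 0.38) and miR-29b-1-5p by -0.41 (SE 0.61) on the log2 scale. Summed over the shared seed, the family stood at 6368, 8885 and 7221 normalised CPM in MS and 3159, 2594 and 3015 in SS (log2 difference 1.36, SE 0.35, edgeR adjusted p = 0.211), and was called on the 6 libraries (adjusted p = 0.0269), on those without SS 12 (0.0401) and without MC 16 (0.00512; 0.00512 to 0.704 over the alternatives). The list of miRNAs known to target DNA methyltransferases also held the miR-148 and miR-152 genes. Of its 10 tested members edgeR called 0 and DESeq2 2, and 2 had an unadjusted p under 0.05, in both cases the miR-29 pair above. Without overlap 3 were higher and 1 lower in MS, against 12.8% and 10.6% of all miRNAs, and the median log2 difference was 0.25. miR-148a-3p, at 79.8, 54.0 and 41.1 in MS and 33.7, 38.6 and 59.6 in SS, and miR-152-3p, at 35.9, 24.2 and 31.8 against 31.8, 35.9 and 33.5, overlapped between the groups.

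**Figure D1:**
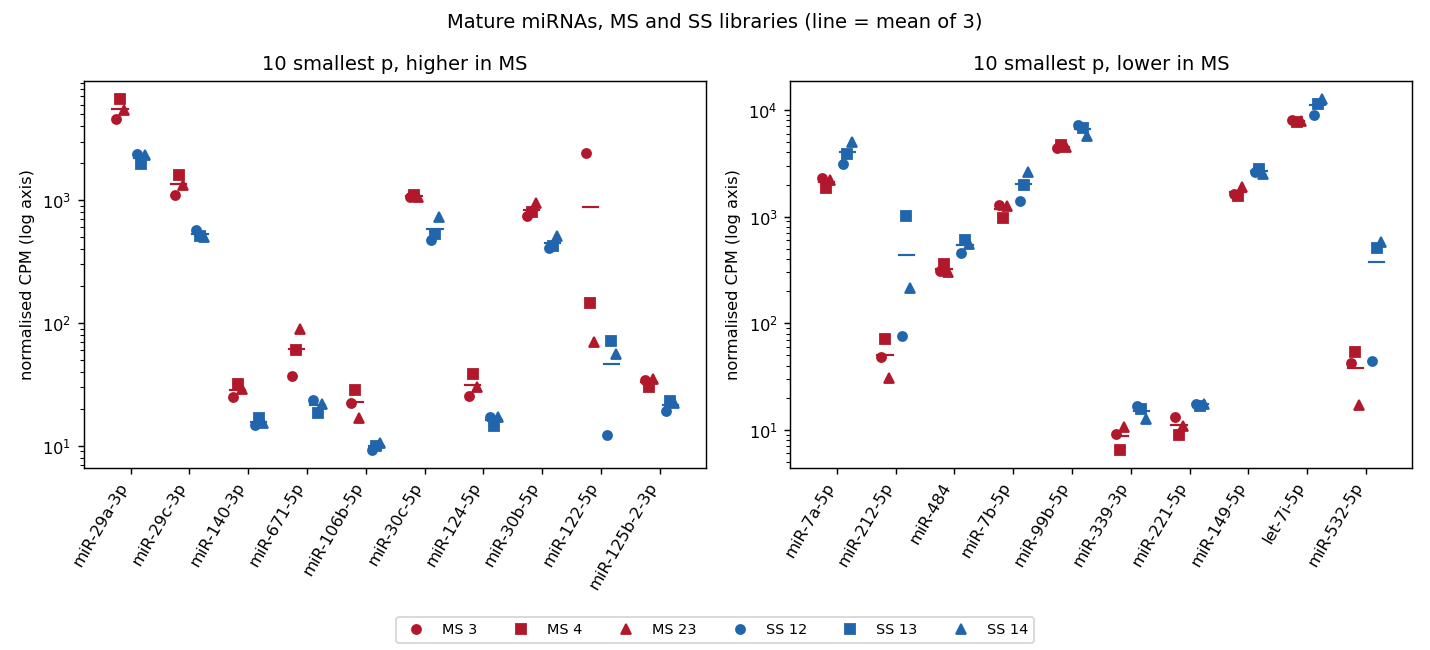
Normalised CPM on a log axis (y) for the 10 miRNAs of smallest p in each direction (x) among those with a mean of at least 10 CPM, with 1 point per library and a line at the mean of 3 libraries. Apart from miR-122-5p and miR-532-5p, the MS and SS points of each miRNA do not overlap, and MS 3 alone lifts the mean of miR-122-5p.

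In the miR-30 family, found across most tissues, the members leaned the same way. All 11 tested members of the list had a log2 difference above 0 (range 0.20 to 0.90, median 0.46), and 8 of them were higher in every MS library than in every SS library, against 12.8% of all miRNAs, while edgeR and DESeq2 called 0 and 3 had an unadjusted p under 0.05. miR-30c-5p, encoded in an exon of the noncoding gene Gm27028 at chr1:23291714-23291736 and within an intron of Nfyc at chr4:120769584-120769606, stood at 1059, 1096 and 1064 in MS and at 477, 535 and 728 in SS (log2 difference 0.89, SE 0.26, edgeR adjusted p = 0.315). miR-30b-5p stood at 741, 803 and 951 against 407, 427 and 507 (log2 difference 0.90, SE 0.27, edgeR adjusted p = 0.315), and was called in the fit without MC 16 (adjusted p = 0.0462; 0.0462 to 0.661 over the alternatives). miR-30e-5p, at 322, 377 and 401 against 173, 189 and 302, and miR-30a-5p, at 950, 994 and 917 against 594, 530 and 844, had the same order. The most abundant member, miR-30d-5p, overlapped, since SS 14 at 2438 lay above MS 23 at 2411 (log2 difference 0.32, SE 0.22). The summed level of the list was 6050, 6288 and 6128 in MS and 3881, 3708 and 5095 in SS. By seed the family also takes in miR-384-5p, and its summed log2 difference was 0.34 (SE 0.25, edgeR adjusted p = 0.74).

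miR-7, a neuronal and neuroendocrine miRNA that binds the circular RNA Cdr1as, stood on the lower side in MS, without a call by edgeR. miR-7a-5p, encoded within an intron of Hnrnpk at chr13:58392841-58392863 and also at chr7:78888295-78888317, stood at 2298, 1856 and 2187 normalised CPM in MS and at 3107, 3898 and 5045 in SS. The mean of SS was 1.90 times that of MS (log2 difference -0.93, SE 0.23, edgeR adjusted p = 0.315), and DESeq2 called it (adjusted p = 0.0117; 0.0117 to 0.661 over the alternatives). miR-7b-5p stood at 1294, 962 and 1260 against 1413, 1992 and 2611 (log2 difference -0.77, SE 0.24, edgeR adjusted p = 0.315). Scaled to library totals the log2 differences were -0.70 for miR-7a-5p and -0.55 for miR-7b-5p, and miR-7b-5p overlapped between the groups. After TMM scaling the 3′ arms were closer to 0, between -0.20 and -0.31, and overlapped. miR-671-5p, known to direct the cleavage of Cdr1as, was the miRNA of largest ratio among those without overlap on the higher side of the 20 named by p: it stood at 36.7, 59.8 and 89.3 in MS and at 23.5, 18.6 and 22.0 in SS, a ratio of means of 2.90 (log2 difference 1.54, SE 0.42, edgeR adjusted p = 0.315, DESeq2 adjusted p = 0.041). It lies in an exon of Chpf2 at chr5:24592132-24592154, and its partner arm miR-671-3p differed by 0.32 (SE 0.31).

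**Figure D2:**
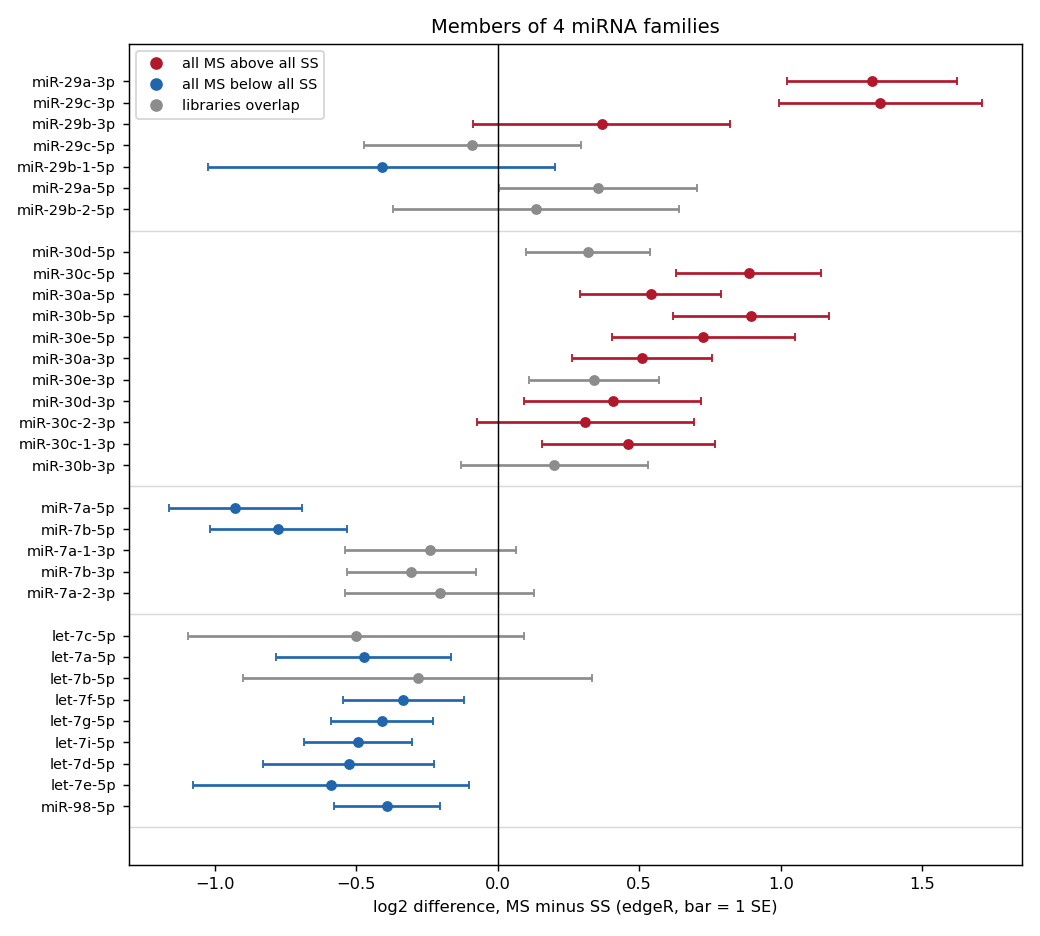
Log2 difference between MS and SS (x, edgeR, bars 1 SE) of the tested members of the miR-29, miR-30, miR-7 and let-7 families (y), coloured by whether the libraries of the groups overlap. All miR-30 members lie right of 0 and all miR-7 arms and let-7 5p arms lie left of it, while the miR-29 members range from -0.41 to 1.35.

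Other miRNAs among the 10 of smallest p on the higher side were present at lower levels. miR-140-3p, from an exon of Wwp2 at chr8:107551288-107551308, stood at 25.2, 31.7 and 29.0 in MS and at 14.9, 16.8 and 15.4 in SS (log2 difference 0.87, SE 0.24), and its abundant partner miR-140-5p at 254, 274 and 234 against 167, 188 and 183 (log2 difference 0.50, SE 0.26). Both arms of this hairpin were higher in every MS library. miR-106b-5p, from an intron of the replication factor gene Mcm7 at chr5:138165787-138165807, stood at 22.5, 28.3 and 16.8 against 9.26, 10.0 and 10.5 (log2 difference 1.18, SE 0.33). miR-124-5p, the minor arm of the neuronal miR-124 hairpins, stood at 25.3, 38.6 and 30.0 against 17.0, 14.6 and 17.2 (log2 difference 0.94, SE 0.28). miR-125b-2-3p stood at 34.6, 30.3 and 35.2 against 19.1, 23.3 and 22.3 (log2 difference 0.63, SE 0.22). All 4 were called by DESeq2 (adjusted p = 0.0099, 0.0423, 0.0441 and 0.041) and not by edgeR on the 12 libraries (adjusted p = 0.315 for the first 3 and 0.353 for the last), and miR-106b-5p was also called by edgeR without MC 16 (adjusted p = 0.0462; 0.0423 to 0.661 over the alternatives).

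Among the miRNAs called only under other settings, named here after their values were seen, miR-153-3p was abundant. This neuronal miRNA, from an intron of Ptprn2 at chr12:117250860-117250881, stood at 6623, 7192 and 5725 in MS and 2911, 2549 and 3169 in SS (log2 difference 1.18, SE 0.42, edgeR adjusted p = 0.386), and was called in the fit to the 6 libraries (adjusted p = 0.0353; 0.00683 to 0.749 over the alternatives). miR-144-3p, made in red blood cells, stood at 13.1, 13.5 and 13.2 against 5.10, 3.50 and 3.55 (log2 difference 1.71, SE 0.58), and was called in the fit to the 6 libraries without SS 12. Its neighbour in the genome, miR-451a, also a red cell miRNA and far more abundant, overlapped between groups, at 3856, 2245 and 2575 in MS and 2434, 2313 and 1541 in SS.

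On the lower side, miR-212-5p had the largest difference of those without overlap, and it rested largely on 1 library. It shares a hairpin with miR-212-3p next to miR-132, both known to be induced by neuronal activity, at chr11:75173403-75173425 in an intron of the noncoding gene 1700016P03Rik. It stood at 48.0, 70.7 and 30.7 in MS and at 76.5, 1014 and 215 in SS (log2 difference -3.13, SE 0.84, edgeR adjusted p = 0.315), and without SS 13 the log2 difference was -1.56. The partner arm miR-212-3p, far more abundant, overlapped at 1918, 2112 and 1909 against 1863, 2466 and 2752 (log2 difference -0.25, SE 0.22), as did miR-132-3p, for which SS 14 stood at 1362 and the other 5 between 280 and 343. miR-532-5p showed the same kind of spread, with 42.3, 53.5 and 17.2 in MS and 43.7, 505 and 580 in SS (log2 difference -3.32, SE 1.30, edgeR adjusted p = 0.448). Within the cocaine group it stood at 478 in CS 9 against 26.6 in CS 8 and 12.6 in CS 10. It was called by edgeR in the fit to the 6 libraries without SS 12 (-3.81, adjusted p = 0.0393, with 0.0393 to 0.751 over the alternatives). That fit was chosen after seeing the data and drops the SS library that lay among the MS values. That fit also called miR-135a-5p and miR-135b-5p, of log2 difference -1.25 and -1.24, named here after their values were seen.

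The remaining lower miRNAs differed by less and more evenly. miR-484, encoded at chr16:14159630-14159651, stood at 306, 362 and 299 in MS and 458, 600 and 558 in SS (log2 difference -0.74, SE 0.22). miR-99b-5p, from an intron of Spaca6 at chr17:17830194-17830215, stood at 4381, 4685 and 4479 against 7230, 6840 and 5679 (log2 difference -0.54, SE 0.17). DESeq2 called both (adjusted p = 0.0176 and 0.0099), and with library totals in place of TMM factors the differences shrank to -0.48 and -0.29. miR-149-5p stood at 1644, 1553 and 1895 against 2647, 2823 and 2509, let-7i-5p at 7981, 7768 and 7878 against 9016, 11462 and 12788, miR-221-5p at 13.3, 8.99 and 10.9 against 17.6, 16.8 and 17.6, and miR-339-3p at 9.09, 6.47 and 10.5 against 16.8, 15.7 and 12.5. In each of these 6 the MS libraries lay below the SS libraries after TMM scaling, with edgeR adjusted p between 0.315 and 0.431. Scaled to library totals, miR-484, miR-99b-5p and let-7i-5p overlapped between the groups, and miR-149-5p, miR-221-5p and miR-339-3p did not. The smallest adjusted p of all miRNAs (0.105, edgeR) belonged to the predicted miRNA novel_mir54, deposited at chr1:38627245-38627306 on the minus strand of mm10, whose counts were 14, 10 and 12 in MS against 42, 33 and 37 in SS (log2 difference -1.99, SE 0.35). DESeq2 and edgeR without MC 16 called it (adjusted p = 0.00398 and 0.0283; 0.00398 to 0.592 over the alternatives). Predicted miRNAs are listed in a library from 10 counts upward, so its MS values lie near the limit of listing.

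miR-122-5p, the dominant miRNA of hepatocytes, had the largest log2 difference among the 20 miRNAs named by p (4.24, SE 1.39, edgeR adjusted p = 0.336, DESeq2 adjusted p = 0.0178; 0.0178 to 0.864 over the alternatives), and it was set by MS 3. Levels were 2437, 146 and 70.2 in MS against 12.3, 71.1 and 56.4 in SS. The groups overlapped at MS 23, and without MS 3 the log2 difference was 1.21. Another miRNA of liver and gut was high in the same library: miR-192-5p stood at 990 in MS 3 and between 128 and 197 in the other 5. The next most abundant member of that list, miR-194-5p, had a log2 difference of 0.06. The whole list, of which 6 of 8 members were tested and 1 member was at 0, summed to 3748 in MS 3 and to between 314 and 508 in the others, with 0 called by edgeR, 1 by DESeq2 (miR-122-5p), 3 of unadjusted p under 0.05 and a median log2 difference of 1.34. The list of epithelium and olfactory bulb, led by miR-429-3p (336 in MS 3, 41.2 in MS 4, 133 in MS 23 and 60.1 to 74.6 in SS) and miR-200a-3p, summed to 844, 142 and 347 in MS and to between 175 and 207 in SS. Its member miR-375-3p had a log2 difference of -0.13. Outside the comparison, CS 10 was higher than MS 3 in miR-429-3p (489) and in miR-200a-3p (208 against 177), with miR-122-5p at 9.63. MS 3 was also high in miR-1298-5p, from the choroid plexus list (50.8 against 7.31 to 18.2 in the other 5 libraries). That list as a whole summed to 2484 in MS 3 and to between 1634.5 and 2309 in the other 5. Its most abundant member, miR-204-5p, stood at 2404 in MS 3 and 2277 in SS 14 (log2 difference -0.16). The part of other tissue in the values of MS 3 was not tested, and without MS 3 the differences of miR-29a-3p and miR-7a-5p were 1.44 and -0.99.

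The 10 most abundant miRNAs had log2 differences between -0.64 and -0.09. Scaled to library totals these ran from -0.40 for miR-9-5p to 0.16 for miR-181a-5p, so the shared sign depends on the TMM factors. miR-124-3p, the main neuronal miRNA, varied more within groups than between them, at 164309, 29913 and 173689 in MS and 182484, 213413 and 72719 in SS (log2 difference -0.35, SE 0.74). miR-9-5p stood at 41252, 35900 and 39230 in MS and 53825, 63609 and 63761 in SS (log2 difference -0.64, SE 0.25, edgeR adjusted p = 0.457), and was called in the fit without MC 16 (adjusted p = 0.0462) and in that of the 6 libraries without SS 12 (0.0417; 0.0417 to 0.841 over the alternatives). Its partner arm had the opposite order, with miR-9-3p at 3837, 3562 and 4806 in MS and 2783, 3232 and 2356 in SS (log2 difference 0.54, SE 0.31).

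The let-7 family, which is abundant in mature neurons, stood on the lower side. Of 23 tested let-7 and miR-98 arms, 9 were lower in every MS library and 0 were higher, against 10.6% of all miRNAs lower, while edgeR and DESeq2 called 0, 3 had an unadjusted p under 0.05 and the median log2 difference was -0.36. Scaled to library totals the median was -0.11. Summed mature let-7 then overlapped between the groups, at 90766, 113845 and 105243 CPM in MS and 99131, 117801 and 138003 in SS. The separation of the groups thus depends on the TMM factors. let-7g-5p stood at 8755, 8946 and 9981 in MS and 10120, 13836 and 12794 in SS (log2 difference -0.41, SE 0.18), and let-7a-5p at 12117, 13057 and 13622 against 16263, 19709 and 17861 (log2 difference -0.47, SE 0.31). miR-26a-5p, also abundant in neurons, stood at 36495, 32775 and 30774 against 37170, 52385 and 48003 (log2 difference -0.46, SE 0.19, and -0.21 scaled to library totals).

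In the other lists of miRNAs by cell type, locus or family edgeR called 0 members. DESeq2 called 2 in the neuron-enriched list (miR-7a-5p and miR-124-5p), 1 in synaptic plasticity (miR-212-5p), 2 in cocaine and reward (miR-212-5p and miR-124-5p), 1 in miR-17-92 and miR-106b-25 (miR-106b-5p) and 2 in miR-99, miR-100 and miR-125 (miR-99b-5p and miR-125b-2-3p). Counts without overlap are read here against 12.8% higher and 10.6% lower over all miRNAs, and those of unadjusted p under 0.05 against 9.62%. Of 23 neuron-enriched miRNAs tested, 6 were higher and 6 lower in MS without overlap, 7 had an unadjusted p under 0.05, and the median log2 difference was -0.21 (0.02 scaled to library totals). Lists tied to synaptic plasticity (11 tested, 0 higher and 3 lower without overlap, median -0.25) and to cocaine and reward (14 tested, 2 higher and 4 lower, median -0.26) both held miR-212-5p as their lowest member. The Dlk1-Dio3 cluster, a large imprinted miRNA locus active in neurons, had 96 tested members, 17 higher and 12 lower without overlap, with a median of -0.08. The Sfmbt2 cluster had 32 tested, 1 higher and 4 lower, with a median of -0.30.

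For lists that mark other cells, to be read against the same shares (12.8% higher and 10.6% lower), the median log2 difference was 0.27 for oligodendrocytes (7 tested, 1 higher and 0 lower without overlap), 0.14 for leukocytes and microglia (11 tested, 3 and 0), 0.46 for red blood cells (7 tested, 2 and 0), 0.19 for endothelium and vascular wall (6 tested, 2 and 0), 0.09 for choroid plexus (8 tested, 1 and 2), 0.06 for multiciliated cells (5 tested, 1 and 0), -0.08 for muscle (5 tested, 0 and 1) and 1.49 for epithelium (8 tested, 1 and 0). miR-21a-5p, abundant in leukocytes and glia, was high in SS 12, at 8124 against 1754 and 1628 in the other SS libraries and 3516, 1420 and 1325 in MS. The leukocyte list summed to 10614 in SS 12 and to between 3450 and 6047 in the other 5 libraries. Among the remaining families the median was 0.12 for miR-17-92 and miR-106b-25 (18 tested), -0.22 for miR-23, miR-24 and miR-27 (10 tested), -0.05 for miR-15 and miR-16 (11 tested), -0.05 for miR-26 (5 tested), 0.27 for miR-103 and miR-107 (5 tested), -0.06 for miR-181 (8 tested) and 0.11 for miR-99, miR-100 and miR-125 (11 tested).

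**Figure D3:**
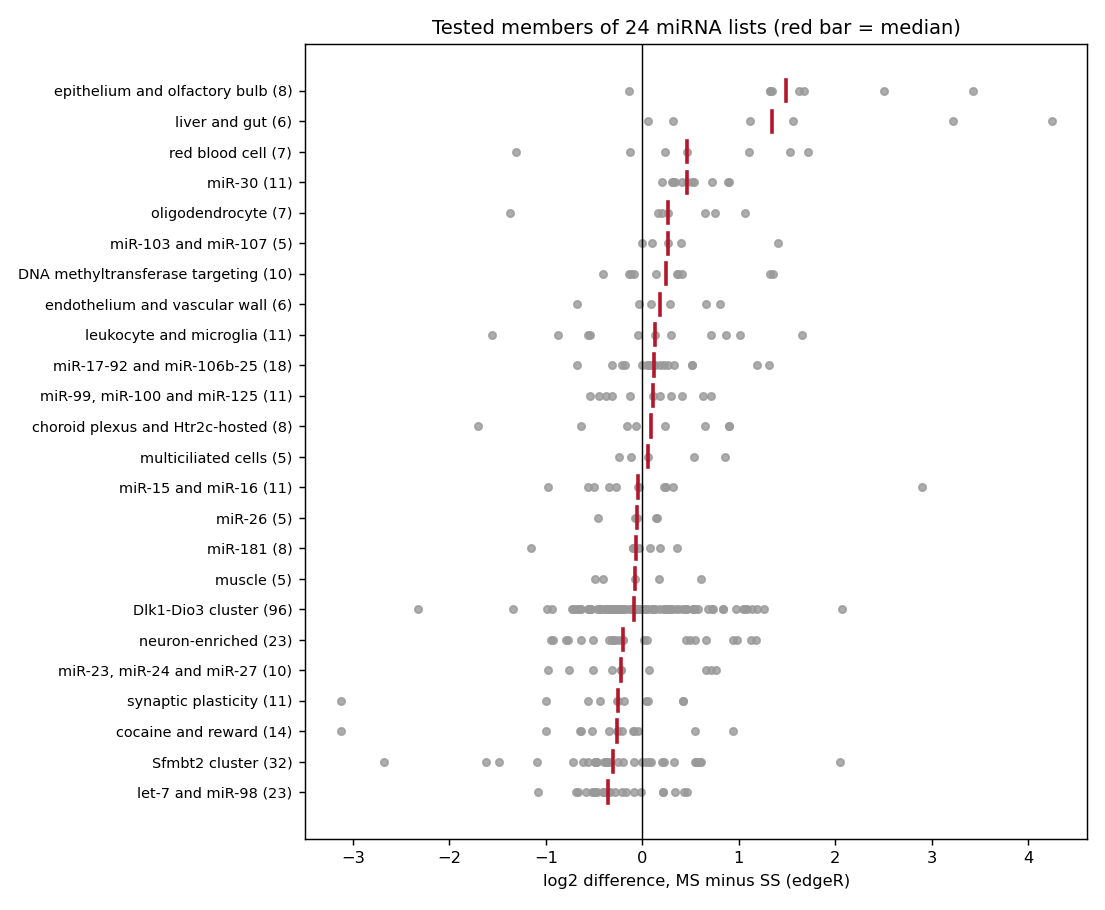
Log2 difference between MS and SS (x, edgeR) of every tested member (dots) and the median (line) of 24 miRNA lists (y). The miR-30 dots all lie right of 0, the let-7 median lies at -0.36, and the liver and epithelium medians, at 1.34 and 1.49, rest on libraries that differ within MS.

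Counts were also summed over miRNAs that share a seed, which gave 1136 families of which 618 were tested. None (0%) passed edgeR's test, 60 (9.71%) had an unadjusted p under 0.05, 43 of them higher in MS, and DESeq2 called 1 (0.162%), the family of miR-212-5p. The MS libraries lay above the SS libraries for 96 families (15.5%) and below them for 48 (7.77%). The families with several members among the 5 smallest p-values on each side were miR-299 and miR-29 (higher) and miR-7 (lower). The miR-7 family stood at 3835, 2911 and 3522 in MS and 4501, 5692 and 7460 in SS (log2 difference -0.78, SE 0.25, edgeR adjusted p = 0.297). The pair miR-299a-3p and miR-299b-3p, from the Dlk1-Dio3 cluster, stood at 9.41, 13.3 and 10.9 against 5.88, 4.43 and 4.73 (log2 difference 1.16, SE 0.29, edgeR adjusted p = 0.211). The let-7 seed differed by -0.35 (SE 0.38) and that of miR-17, miR-93 and miR-106b by 0.28 (SE 0.26). The rest of the 5 smallest p-values on each side were single miRNAs: miR-494-3p (log2 difference 1.27), miR-671-5p (1.61) and miR-129b-5p (1.21) on the higher side, and miR-212-5p (-3.02), miR-690 (-2.81), miR-5617-3p (-1.60) and miR-7019-3p (-1.75) on the lower, of which the last was called in the 6 libraries without SS 12 (edgeR adjusted p = 0.0401; 0.0401 to 0.704 over the alternatives).

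The arms of a hairpin had the same sign more often than opposite signs. Of 220 hairpins with both arms tested, 139 (63.2%) had the same sign in both, and the log2 differences of the arms correlated weakly across hairpins (r = 0.30), which are not independent replicates and share libraries.

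Precursor families, to which reads matching hairpin families of Rfam were assigned, took a larger share of counts in MS. Their share was 14.3%, 15.8% and 15.2% in MS against 11.5%, 12.4% and 11.3% in SS, a difference of 3.37 percentage points (15.1% ± 0.727 against 11.7% ± 0.585, SD, n = 3, two-sided exact permutation p = 0.1, the smallest possible). Mature miRNAs held 65.9%, 59.5% and 63.6% against 63.4%, 67.9% and 65.5% (exact permutation p = 0.5, n = 3). With genomic classes left out, miRNAs made up 81.3%, 77.8% and 79.8% in MS and 83.5%, 83.6% and 83.9% in SS (exact permutation p = 0.1, n = 3). Introns held 3.86%, 4.00% and 3.63% against 4.54%, 4.67% and 4.19% (exact permutation p = 0.1, n = 3). The piRNA share overlapped, at 0.333%, 0.463% and 0.365% against 0.41%, 0.321% and 0.325%, and no siRNA was counted in any of the 6.

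**Figure D4:**
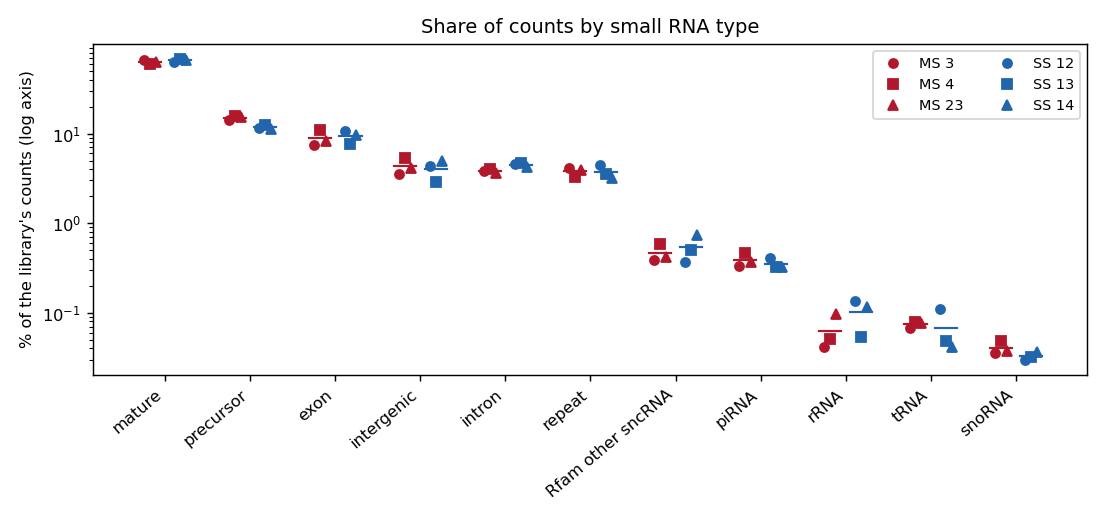
Share of all counts (y, percent, log axis) in 11 annotation types (x), with 1 point per library and a line at the mean of 3. Precursor families are higher in all 3 MS libraries and introns lower, and the other types overlap between MS and SS.

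Of 204 precursor families 125 were tested, and 0 (0%) were called by edgeR, 5 (4%) had an unadjusted p under 0.05 and DESeq2 called 5 (4%): mir-7, mir-122 and RF00445, RF00842 and RF00704, of which the last 3 held at most 3 counts in any MS or SS library. The MS libraries were above the SS libraries for 4 (3.2%) and below for 8 (6.4%) after TMM scaling of the precursors, and for 16 and 3 on library totals. The mir-7 family was lower in MS, at 97.0, 98.1 and 109 normalised CPM against 175, 175 and 227 (log2 difference -0.92, SE 0.39, edgeR adjusted p = 0.823, DESeq2 adjusted p = 0.018; 0.018 to 0.958 over the alternatives). The mir-122 family followed the mature miRNA, with 1622 counts in MS 3 and between 3 and 71 elsewhere (log2 difference 4.35, and 1.14 without MS 3). The mir-344 difference rested on SS 12, which held 74 counts against 0 to 6 in the other 5, and the log2 difference of -3.79 was -1.53 without it. The mir-671 family (3, 14 and 9 counts against 2, 2 and 3) and mir-183 (152, 14 and 47 against 4, 8 and 13) overlapped.

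Mature and precursor counts of the leading families were set side by side on library totals. miR-29 reads were higher in MS under both labels. Mature miR-29 stood at 6372, 10518 and 7244 CPM against 3107, 2459 and 3254. Reads labelled as its precursor family stood at 22631, 32094 and 23626 against 13062, 12747 and 12553. The precursor label made up 78.0%, 75.3% and 76.5% of the miR-29 sum in MS and 80.8%, 83.8% and 79.4% in SS. After TMM scaling the mir-29 precursor difference was 0.78 on the log2 scale (SE 0.46, edgeR adjusted p = 0.823). miR-30 was higher under both labels on library totals, with precursor values of 656, 918 and 700 against 385, 325 and 478. After TMM scaling its precursors overlapped, at 574, 842 and 637 against 330, 351 and 615 (log2 difference 0.66, SE 0.36). miR-7 was lower under both labels, with precursor values of 111, 107 and 120 against 203, 162 and 176. miR-9 was lower as mature miRNA, while its precursors overlapped. The miR-124 precursor stood at 57301, 62289 and 67708 against 53058, 46123 and 42283, and overlapped after TMM scaling (log2 difference 0.17, SE 0.26), as mature miR-124 did. The let-7 precursor ranged from 661 to 10309 across the 6 libraries with no order by group, and mature let-7 overlapped as well. Mature miR-26 overlapped on library totals, while its precursor values were higher in MS, at 7376, 8058 and 7191 against 5167, 5871 and 6167. After TMM scaling the miR-26 precursors overlapped as well (log2 difference 0.12, SE 0.36).

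**Figure D5:**
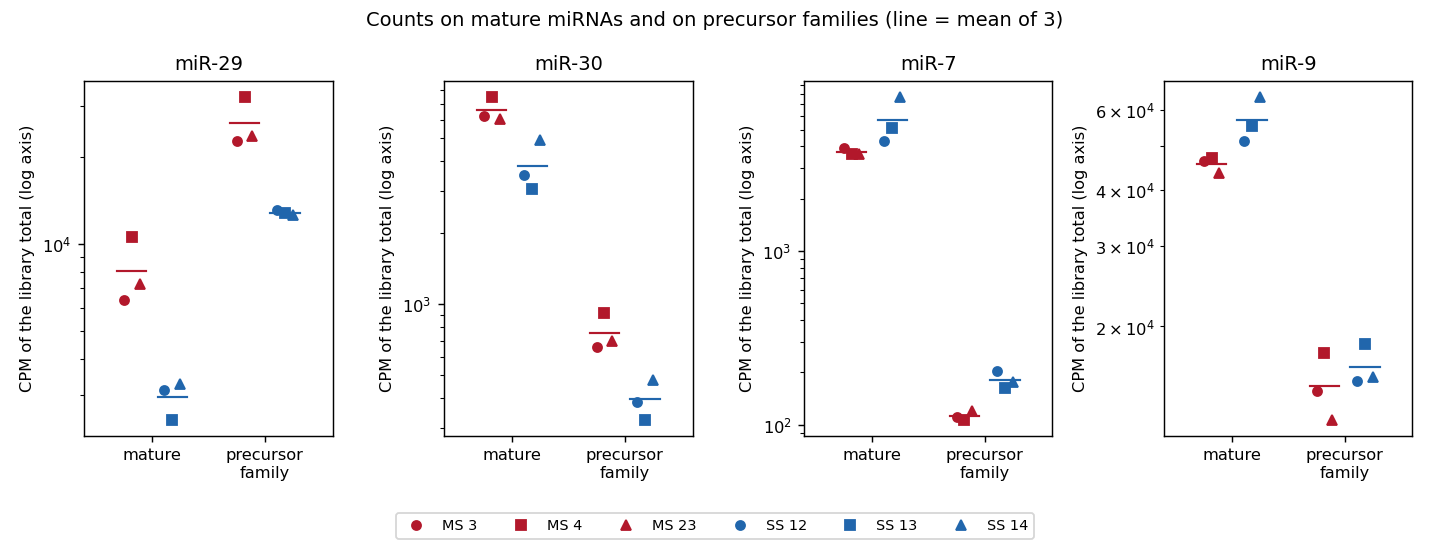
CPM of the library total (y, log axis) on mature miRNAs and on the matching precursor family (x) for miR-29, miR-30, miR-7 and miR-9, with 1 point per library and a line at the mean of 3. On this scale MS lies above SS under both labels for miR-29 and miR-30 and below it under both for miR-7, and the precursors of miR-9 overlap.

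Of 775 other families 194 were tested, with 0 (0%) called by edgeR, 10 (5.15%) at an unadjusted p under 0.05 and 0 (0%) called by DESeq2, and 16 (8.25%) higher and 8 (4.12%) lower without overlap. SNORD19, a small nucleolar RNA, was counted 5, 6 and 4 times in MS against 1, 0 and 1 in SS. Z39, another, was counted 5, 3 and 14 times against 1, 1 and 2. RF01668 (0, 1 and 0 counts against 39, 3 and 0) and RF01276 (0, 0 and 0 against 66, 0 and 0) rested on SS 12. The 5.8S ribosomal RNA stood at 174, 166 and 159 normalised CPM against 243, 246 and 610 (log2 difference -1.14, SE 0.46, edgeR adjusted p = 0.713). Of 693 piRNAs 281 were tested, with 0 (0%) called by edgeR, 10 (3.56%) at an unadjusted p under 0.05, 1 (0.356%) called by DESeq2, and 15 (5.34%) higher and 20 (7.12%) lower without overlap. The predicted piRNAs novel_pir692 (14, 10 and 11 counts) and novel_pir684 (98, 18 and 12 counts), both deposited on the same ERVL-MaLR repeat of chromosome 5, were counted in all SS libraries and listed in no MS library. Predicted piRNAs are listed from 10 counts upward, so no fold is given. The piRNA called by DESeq2, novel_pir745, had 123 counts in SS 12 and was listed in no other MS or SS library. novel_pir189, from an ERV1 repeat of chromosome 11, had 14, 13 and 13 counts against 49, 33 and 25 (log2 difference -1.57, SE 0.52, edgeR adjusted p = 0.515).

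The design also asks whether the methionine difference was the same in cocaine-treated mice, from the libraries of cocaine with saline (CS) and with methionine (MC). No miRNA (0%) passed edgeR's interaction test, 34 (4.36%) had an unadjusted p under 0.05, and DESeq2 called 0 (0%). Of the seed families 0 (0%) passed and 28 (4.53%) had an unadjusted p under 0.05, and of the precursor families 0 (0%) and 1 (0.8%). For miR-29a-3p, which stood at 2754, 2747 and 3905 in CS and 2270, 5015 and 4656 in MC, the log2 difference of MC from CS, less that of MS from SS, was -0.98 (SE 0.42, edgeR adjusted p = 0.804). For miR-7a-5p the value was 0.46 (SE 0.33, edgeR adjusted p = 0.81).

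The study singled out 3 miRNAs as higher in CS than in SS and lower in MC than in CS. Of these it reported only miR-330-5p as also higher in MS than in SS, so for miR-224-5p and miR-340-3p the values below test no claim of the study. None of the 3 differed between MS and SS beyond the spread. miR-224-5p stood at 1.78, 0.42 and 1.36 in MS and 12.2, 0.84 and 0.28 in SS, from 3 to 91 counts, and its log2 difference of -1.88 (SE 1.29, edgeR adjusted p = 0.687) became 1.11 without SS 12. miR-340-3p stood at 160, 148 and 132 against 146, 171 and 201 (log2 difference -0.24, SE 0.32), and miR-330-5p at 979, 817 and 914 against 1017, 779 and 937 (log2 difference -0.01, SE 0.31). All 3 overlapped between the groups.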

How the data were processed

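Small RNA of 18 to 30 nt from medial PFC was sequenced in 12 libraries. The authors annotated reads with AASRA and matched piRNAs to piRBase with Bowtie, allowing 1 mismatch, on mm10 per the submitters' processing notes (versions not given in the sources used here). They deposited raw counts per feature beside TPM per library total, and the deposited TPM was used only to check the counts (tolerance 0.005). The study compared groups with DEGseq, and that comparison was not used here.

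Groups came from the labels. The filter kept features that reached 5 counts in 3 or more of the 12 libraries, and each class was tested with edgeR 4.0.16 (R 4.3.3): TMM factors, quasi-likelihood fit of 4 groups with 8 residual degrees of freedom, Benjamini-Hochberg adjustment, threshold 0.05. The SE is the log2 difference over the root of F. Normalised CPM is the count over total times TMM factor, times 1000000. DESeq2 1.42.0 was an alternative, with other scalings, filters, a fit to the 6 libraries and single libraries left out. Fits without MC 16, and 6-library fits without SS 12 or MS 3, were chosen after seeing the data. Class shares were compared by exact permutation (scipy 1.17.1). Figures used matplotlib 3.10.9. The steps were tested on simulated data.

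Named miRNAs were the 10 of smallest p in each direction with a mean of at least 10 CPM, the 10 most abundant, the 2 most abundant members of each list, and those the study named; families, precursors and other classes were named by p. Members and lists were chosen with earlier results of these data known. Floors of 3 counts cover counting error only.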

Additional observations from a re-analysis of the deposited data

How the results depend on the processing

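No paired analysis was possible because MS and SS share no replicate number. Of 101 counts of calls under alternatives, 87 were 0, as in the reported fits. The others were, for miRNAs, 13 with DESeq2, 3 in the fit to the 6 libraries, 7 without MC 16 and 8 in the 6 libraries without SS 12; for seed families 1, 3, 2 and 6 under these and 2 without a filter; for precursor families 5 with DESeq2; for other RNA families 3 without a filter; and for piRNAs 1 with DESeq2, 8 without a filter and 1 in the 6 libraries without SS 12. Of 368 values of the 23 miRNAs named by p or by the study, 335 kept direction and side of the threshold, 21 passed it and 12 changed sign, all of them for the 3 miRNAs the study named. Of 44 miRNAs named only for level or list, 19 had both signs over the alternatives, among them miR-124-3p (-0.70 to 0.11) and miR-21a-5p (-1.51 to 0.35). miR-224-5p gave 1.15 in the 6 libraries without SS 12 and -2.49 to 1.11 with 1 library left out. miR-340-3p gave 0.0054 on library totals. miR-330-5p gave 0.036 with TMM factors or 1 fit of all features, 0.22 on library totals, 0.053 with at least 10 counts, 0.0071 without a filter, 0.063 without MC 16, 0.11 in the 6 libraries without SS 12 and -0.13 to 0.081 with 1 library left out. With 1 library left out, the MS minus SS difference in share ran from -0.157 to 0.00693 percentage points for other RNA families, from -0.00329 to 0.0636 for piRNAs and from -2.13 to 0.502 for genomic classes, and that in total counts from -0.102 to 1.32 in units of 1000000. The cause was not tested. With 3 libraries a group, exact tests could not go below 0.1, and miRNAs near 3 counts could not be compared.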
